A study of Mus musculus with 4 samples.

Results

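The genes described here are 10 mouse genes that store, release, export or sense iron inside cells, out of 55487 genes in the deposited table. They comprise the ferritin subunit genes Fth1 and Ftl1, the ferritin-clearing receptor gene Ncoa4, the iron exporter gene Slc40a1, the iron regulatory protein genes Aco1 and Ireb2, their controller Fbxl5, the iron chaperone gene Pcbp1, and the mitochondrial iron importer genes Slc25a37 and Slc25a28. The genes were chosen by function, and each symbol matched 1 row of the table through GENCODE M21. Messenger RNA came from bulk hepatocellular carcinoma tissue of 4 mice, 2 labelled Tfrc knockout and 2 labelled wild type. The series title gives the background as Alb-cre H11-myc: albumin-driven Cre acts in hepatocytes, and a c-Myc transgene gives spontaneous liver tumours. In the knockout mice Tfrc, the transferrin receptor gene, was deleted conditionally in the liver, so cells without albumin expression keep it. The labels give no age, no deleted exons, and no statement on which alleles the wild type mice share.

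Iron that enters a cell joins a cytosolic pool from which it is stored in ferritin, used in mitochondria or exported. Ferritin is a hollow shell of heavy and light chains: the heavy chain oxidises iron and the light chain helps it to mineralise. NCOA4 carries ferritin to lysosomes, where the iron is released, and ferroportin, the Slc40a1 product, is the known iron exporter of vertebrate cells. When iron is scarce, IRP1 (Aco1) and IRP2 (Ireb2) bind hairpins in target mRNAs called iron-responsive elements. Binding near the start of an mRNA blocks translation, while binding after the coding region of Tfrc protects the mRNA from decay. When iron is plentiful, IRP1 takes up an iron-sulfur cluster and acts as an aconitase, and FBXL5 marks IRP2 for degradation. Much of this control acts on translation or protein, which mRNA counts do not measure.

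The iron-responsive elements of these genes are shown because they are the kind of sequence that the regulatory proteins bind. The search took transcripts of GENCODE M21 and looked in the 5′ and 3′ untranslated regions for a C, any 5 bases, CAGTG followed by A, C or T, and 5 bases that pair with the first 5 (G-T pairs allowed, sense strand alone). A match is a description of letters, not a measured binding site. Each site is printed over 30 bases, 5′ to 3′, with the loop in capitals.
Fth1, 5′ region, chromosome 19: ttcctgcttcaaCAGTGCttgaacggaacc
Ftl1, 5′ region, chromosome 7: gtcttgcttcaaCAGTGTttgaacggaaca
Slc40a1, 5′ region, chromosome 1: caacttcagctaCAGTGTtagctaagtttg
Tfrc, 3′ region, first of the matches, chromosome 16: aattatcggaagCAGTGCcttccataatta
Among the 10 genes, Fth1, Ftl1 and Slc40a1 held a match, each in the 5′ region, and the other 7 held none in either region. A match was found in the 5′ region of 0.102% of 20522 genes and in the 3′ region of 0.465% of 20859 genes. The Tfrc 3′ region held 4 matches. The stem next to the loop is the same in Fth1 and Ftl1, and Slc40a1 carries a different stem around the same kind of loop.

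Total counts were 15918349 and 16421439 in knockout replicates 1 and 2, and 16414883 and 17052943 in wild type replicates 1 and 2. Tfrc had 334 and 205 CPM (counts relative to the TMM-adjusted library size) in the libraries labelled knockout, and 460 and 234 CPM in wild type, so the groups overlapped. The counts cover every exon of Tfrc and every cell type of the tumour, so they are no check of genotype, and a direction given below holds for libraries as labelled. Hepatocyte markers were abundant, with the 8 summed to 42568 and 37529 CPM in knockout and to 17665 and 60749 CPM in wild type. Wild type replicate 2 stood apart: a first principal component that held 48.2% of the variance placed it at 86.6, and the other 3 libraries at -37, -38.5 and -11.2. Each library is 1 mouse, per the series text.

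None of the 10 genes passed the test of knockout against wild type by edgeR's quasi-likelihood test with Benjamini-Hochberg adjustment at 0.05 over 16310 tested genes. The smallest unadjusted p-values belonged to the exporter gene Slc40a1, lower in knockout, and to the mitochondrial importer gene Slc25a37, higher in knockout. The ferritin genes overlapped between groups. All 10 passed the filter on low counts, and 0 of 10 were called, against 0.0% of all tested genes. At an unadjusted p under 0.05 there were 2 of the 10, against 8.3% of all tested genes: Slc25a37 was the 1 higher, against 3.95%, and Slc40a1 the 1 lower, against 4.35%. DESeq2 called 0 of the 10, against 0.907% of all genes, with 0.386% higher and 0.521% lower, and limma-voom called 0, against 0.00613%. The groups did not overlap for 7 of the 10, with 5 higher and 2 lower, against 42.0% of all tested genes, 21.9% higher and 20.1% lower. The log2 fold changes of the 10 were positive for 5 and negative for 5, with a median of 0.04, against 0.01 over all tested genes.

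**Figure D1:**
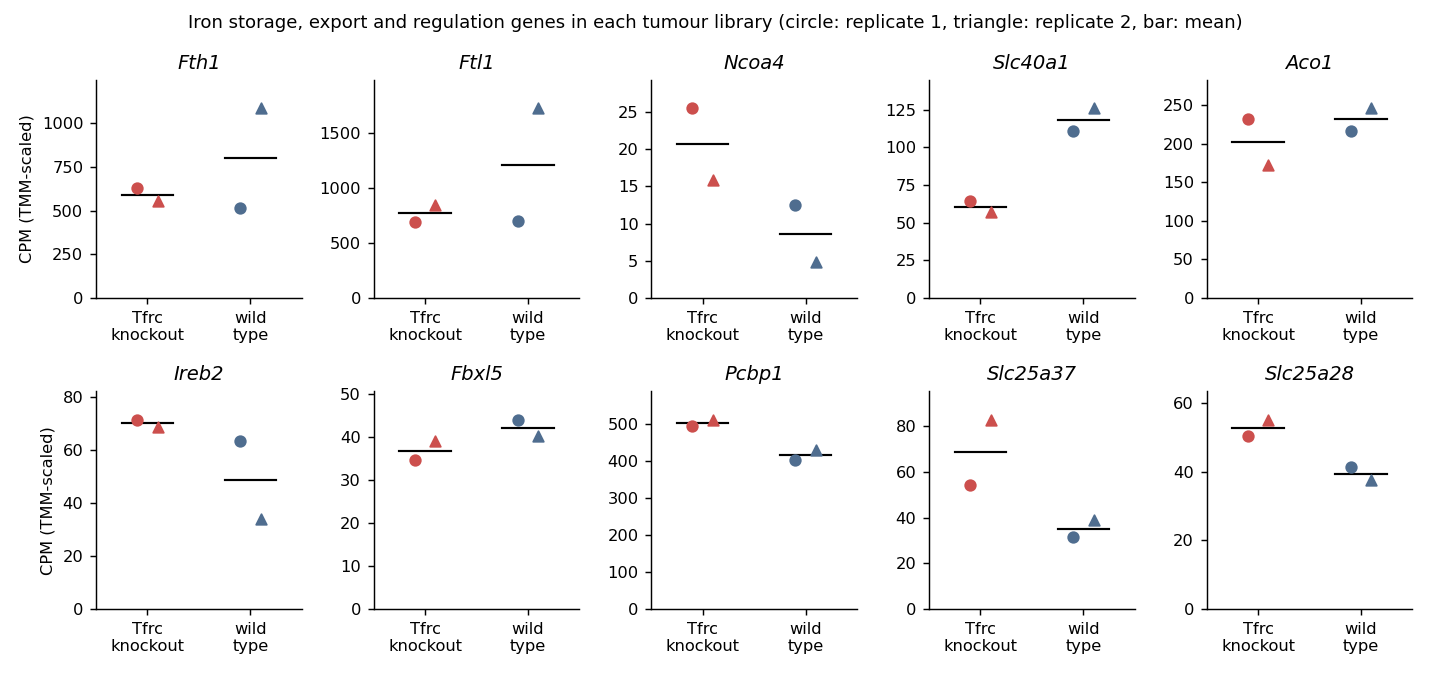
CPM (TMM-scaled, each axis from 0) of the 10 genes in the 2 libraries labelled Tfrc knockout and the 2 labelled wild type; circles are replicate 1, triangles replicate 2, bars the group mean. The groups do not overlap for 5 genes higher in knockout (Ncoa4, Ireb2, Pcbp1, Slc25a37, Slc25a28) and 2 lower (Slc40a1, Fbxl5). Over all tested genes, they do not overlap for 42.0%. Wild type replicate 2 lies far above the other libraries for Fth1 and Ftl1.

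The ferritin genes did not separate the groups, and 1 library, wild type replicate 2, held most of their spread. Fth1, the heavy chain (ENSMUSG00000024661, chromosome 19, 9980598 to 9985098, mm10), had 627 and 554 CPM in knockout replicates 1 and 2, against 516 and 1086 CPM in wild type replicates 1 and 2. Wild type replicate 2 was the highest library and wild type replicate 1 the lowest, so the groups overlapped. The means were 590 ± 51.2 CPM in knockout and 801 ± 403 CPM in wild type (SD, n = 2 each), a log2 fold change of -0.44 (SE 0.47, 95% interval -1.55 to 0.67, edgeR adjusted p = 0.805). Ftl1, the light chain (ENSMUSG00000050708, chromosome 7, 45457944 to 45459884), had 692 and 847 CPM in knockout and 698 and 1724 CPM in wild type. Its pattern was that of Fth1, with wild type replicate 2 alone high and the other libraries close together. The log2 fold change of Ftl1 was -0.65 (SE 0.53, 95% interval -1.91 to 0.6, edgeR adjusted p = 0.74). Without wild type replicate 2 both signs turned, to 0.19 for Fth1 and 0.14 for Ftl1. The hepatocyte marker sum was also highest in wild type replicate 2 and lowest in wild type replicate 1. Alb and Trf made up most of this sum in every library, and its members varied unequally. Alb had 21874 and 16813 CPM in knockout and 5376 and 29461 CPM in wild type. Hnf4a had 549 and 471 CPM in knockout and 530 and 553 CPM in wild type. The part of hepatocyte content in the ferritin values was not tested. In bulk tissue, fewer cells of a type and less RNA per cell cannot be told apart.

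Most light chain counts were assigned to a copy of the gene and not to Ftl1. Ftl1-ps1 (ENSMUSG00000062382, chromosome 13, 74399694 to 74407346) is annotated as protein-coding, and it differs from the 549-base coding sequence of Ftl1 at 2 positions. It had 17209 and 18483 counts in knockout and 15123 and 34204 counts in wild type. Ftl1 itself had 11219 and 13436 counts in knockout and 12812 and 26529 counts in wild type, below Ftl1-ps1 in every library. The longest stretch of coding sequence with no difference was 467 bases. Both differing positions are shown with 20 bases on each side, from 5′ to 3′, with the differing base in capitals and positions counted from 1 at the start codon, since only reads that cover them, or other differences outside the coding sequence, tell the 2 genes apart.
Ftl1, coding position 468, chromosome 7: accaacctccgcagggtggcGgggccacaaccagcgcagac
Ftl1-ps1, same stretch, chromosome 13: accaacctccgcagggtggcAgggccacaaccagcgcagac
Ftl1, coding position 504, chromosome 7: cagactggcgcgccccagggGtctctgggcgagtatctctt
Ftl1-ps1, same stretch, chromosome 13: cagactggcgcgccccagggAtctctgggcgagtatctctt
Ftl1-ps1 also carries the iron-responsive element of Ftl1 with no difference over the 30 bases (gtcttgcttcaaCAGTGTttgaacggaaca). The handling of reads that match both genes is not stated, and the split between them is uncertain.

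Summed over the family, the light chain gave the same picture. The sum does not depend on how reads were split within the family. Whether shared reads were dropped or counted repeatedly, which would change the sum, is not stated. Of the genes in the table, 7 had a transcript at least 90% identical to the Ftl1 coding sequence over at least 50% of its length, among them the processed pseudogene Gm15590 with 1492 and 1564 counts in knockout and 1225 and 4309 in wild type. Ftl1 and these 7 together had 30092 and 33672 counts in knockout and 29310 and 65419 in wild type, so wild type replicate 2 alone was high. Ftl1 held 37.3% and 39.9% of the family's counts in knockout and 43.7% and 40.6% in wild type, with Wilson 95% intervals of 36.7 to 37.8, 39.4 to 40.4, 43.1 to 44.3 and 40.2 to 40.9, which cover counting error only. The summed family had a log2 fold change of -0.55 (SE 0.6, 95% interval -1.98 to 0.87, edgeR adjusted p = 0.809). This sum was chosen after the data were seen. Fth1 had 1 such relative, a pseudogene with 0 counts in all libraries, so its counts are not split in this way. Of the 14 other genes with a ferritin symbol in the table, 9 had 0 counts in all libraries, including the testis-type heavy chain genes Fthl17b to Fthl17f, and Fthl17a had 2 counts in 1 library.

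**Figure D2:**
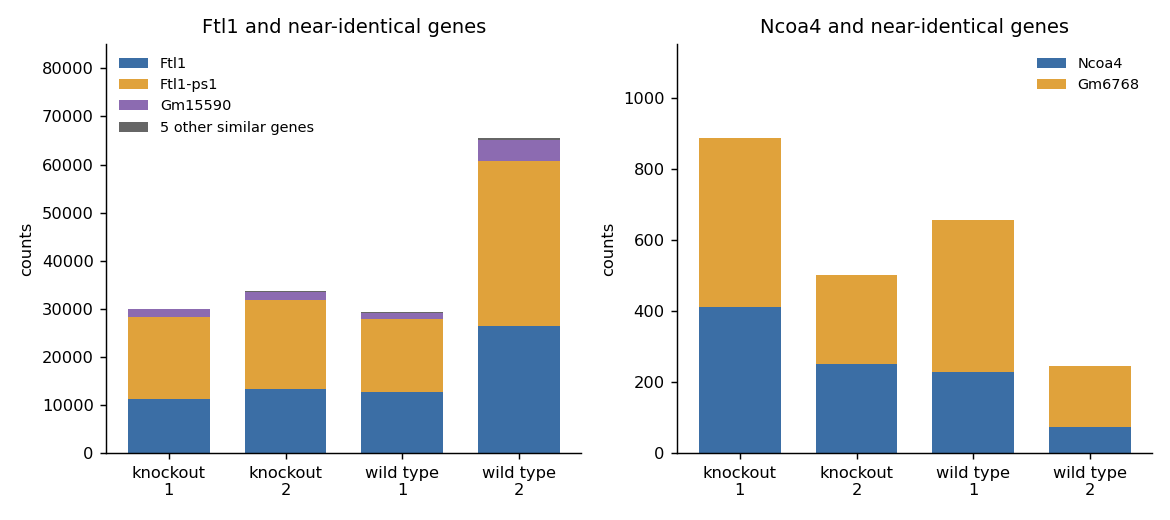
Counts per library of Ftl1 and the 7 genes with near-identical transcripts (left) and of Ncoa4 and its copy Gm6768 (right), stacked, for knockout replicates 1 and 2 and then wild type replicates 1 and 2. Ftl1-ps1 takes the largest part of the light chain counts in every library, and Gm6768 takes more counts than Ncoa4 in 3 of the 4 libraries.

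The balance of heavy to light chain, which bears on how ferritin takes up iron, did not separate the groups. Per kilobase of merged exons, Fth1 had 0.35 and 0.253 times the level of Ftl1 in knockout replicates 1 and 2, and 0.286 and 0.243 times in wild type. The size of this ratio depends on the annotated merged lengths, 3469 bases for Fth1 and 1340 for Ftl1. It also depends on how reads were split between Ftl1 and its copies. In raw counts the ratio was 0.906 and 0.654 in knockout and 0.739 and 0.63 in wild type. The lengths cancel in the difference between groups. The log2 ratio was higher in knockout by 0.17, and an exact two-sided permutation test gave p = 0.667. With 2 libraries against 2, this test cannot go below 0.333. Against the summed light chain family the difference was 0.05 (exact permutation p = 0.667).

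Ncoa4, the receptor that delivers ferritin to lysosomes (ENSMUSG00000056234, chromosome 14, 32159865 to 32179855), lay higher in both knockout libraries, but at low counts and with a copy that blurs it. It had 413 and 251 counts in knockout and 230 and 74 in wild type, or 25.5 and 15.8 CPM against 12.5 and 4.81 CPM. The groups did not overlap, and wild type replicate 2 was the lowest library. Its log2 fold change came to 1.25 (SE 0.54, 95% interval -0.02 to 2.52, edgeR adjusted p = 0.606), the largest of the 10 genes. Left out in turn, wild type replicate 1 gave 2.06, and replicate 2 of wild type gave 0.72.

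The processed pseudogene Gm6768 (chromosome 12, 119260978 to 119262855) matches the 1875-base Ncoa4 coding sequence except at 2 positions. It had 473 and 250 counts in knockout and 427 and 171 in wild type. Gm6768 aligned to 1878 of the 4065 bases of the Ncoa4 transcript. The differing positions are shown as for Ftl1, because within the coding sequence only reads that cover them tell the genes apart.
Ncoa4, coding position 1312, chromosome 14: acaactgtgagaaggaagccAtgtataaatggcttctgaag
Gm6768, same stretch, chromosome 12: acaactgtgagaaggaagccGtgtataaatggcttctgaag
Ncoa4, coding position 1533, chromosome 14: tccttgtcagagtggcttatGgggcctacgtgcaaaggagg
Gm6768, same stretch, chromosome 12: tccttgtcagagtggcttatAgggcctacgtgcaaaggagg
Summed, the pair had 54.7 and 31.6 CPM in knockout and 35.8 and 15.9 CPM in wild type, so knockout replicate 2 lay below wild type replicate 1 and the groups overlapped. On the log2 scale the pair's difference came to 0.74 (SE 0.48, 95% interval -0.39 to 1.86, edgeR adjusted p = 0.681). Ncoa4 held 46.6% and 50.1% of the pair's counts in knockout and 35% and 30.2% in wild type. The Wilson 95% intervals were 43.4 to 49.9 and 45.7 to 54.5 in knockout, and 31.5 to 38.7 and 24.8 to 36.2 in wild type. These intervals cover counting error within a library, and the difference in share between the groups was not tested.

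Of 17 tested partners of ferritin clearance (autophagy and lysosome genes with Herc2, whose ligase degrades NCOA4 when iron is plentiful), 0 passed, while 9 log2 fold changes were above 0 and 8 below it, with a median of 0. Atg7, the enzyme that starts ubiquitin-like conjugation in autophagy, had 27.1 and 25.7 CPM in knockout and 44.1 and 53.1 CPM in wild type (log2 fold change -0.88, SE 0.3, edgeR adjusted p = 0.548). Map1lc3a, an autophagosome membrane protein gene, had 30.7 and 37.5 CPM in knockout and 48.7 and 65.4 CPM in wild type, and the groups did not overlap for either gene. Groups did not overlap for 5 of the 17, with 1 higher and 4 lower, against 42.0% of all tested genes, 21.9% higher and 20.1% lower.

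Slc40a1, which encodes ferroportin (ENSMUSG00000025993, chromosome 1, 45908068 to 45926523), lay lower in both knockout libraries. It had 64.7 and 56.8 CPM in knockout replicates 1 and 2, and 111 and 126 CPM in wild type replicates 1 and 2. Both knockout libraries lay below both wild type libraries. The means were 60.7 ± 5.62 CPM in knockout and 118 ± 10.9 CPM in wild type (SD, n = 2 each), a 1.95-fold lower level. On the log2 scale this was -0.96 (SE 0.29, 95% interval -1.65 to -0.28), with an unadjusted p of 0.0129 and an edgeR adjusted p of 0.547 over all genes. Leaving out each library in turn gave -1.09 to -0.86, and DESeq2 gave an adjusted p of 0.201. The gene had no near-identical relative and no overlapping gene in the table.

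Ferroportin is also abundant in macrophages that recycle iron from red blood cells, and macrophage markers were lower in knockout as well. All 8 macrophage markers had a negative log2 fold change, with a median of -1.4, and their sum was 648 and 350 CPM in knockout and 1081 and 1306 CPM in wild type. All 8 Kupffer cell markers also had a negative value, with a median of -1.66, and summed to 79.7 and 84.3 CPM in knockout and 89 and 266 CPM in wild type. Clec4f, Vsig4, Timd4, Cd5l, Marco and Cd163 overlapped between groups, and wild type replicate 2 was the highest library for each. Cd5l, for example, had 4.56 and 6.43 CPM in knockout and 4.52 and 63 CPM in wild type. Spic and Nr1h3 were lower in both knockout libraries. Most of the Kupffer sum in 3 of the libraries came from Nr1h3, a lipid-sensing receptor gene that hepatocytes also express, with 66.8 and 62.1 CPM in knockout and 74.4 and 105 CPM in wild type. None of these markers passed, and Clec4f had 0 counts in wild type replicate 1 while Timd4 had 0 counts in knockout replicate 1. Marker sums of other cell types were lower in knockout too. The 4 endothelial markers summed to 93.6 and 69 CPM in knockout and 129 and 126 CPM in wild type, and the 4 stellate cell markers to 249 and 430 CPM in knockout and 611 and 509 CPM in wild type. In each of these lists 3 log2 fold changes were negative and 1 positive, that of Kdr at 0.03 and that of Lrat at 0.19. Kdr and Lrat overlapped between groups. Most of the stellate sum came from Col1a1, with 215 and 383 CPM in knockout and 506 and 407 CPM in wild type. The 4 enterocyte markers summed to 98.8 and 99.7 CPM in knockout and 296 and 282 CPM in wild type. Most of that difference came from Vil1, with 5.37 and 9.78 CPM in knockout and 194 and 132 CPM in wild type. Slc5a1, Fabp2 and Lct each overlapped between groups. The 6 leukocyte markers, at 54.3 and 42.9 CPM in knockout and 80.8 and 53.6 CPM in wild type, overlapped as a sum. The part of these cell types in the Slc40a1 value was not tested.

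**Figure D3:**
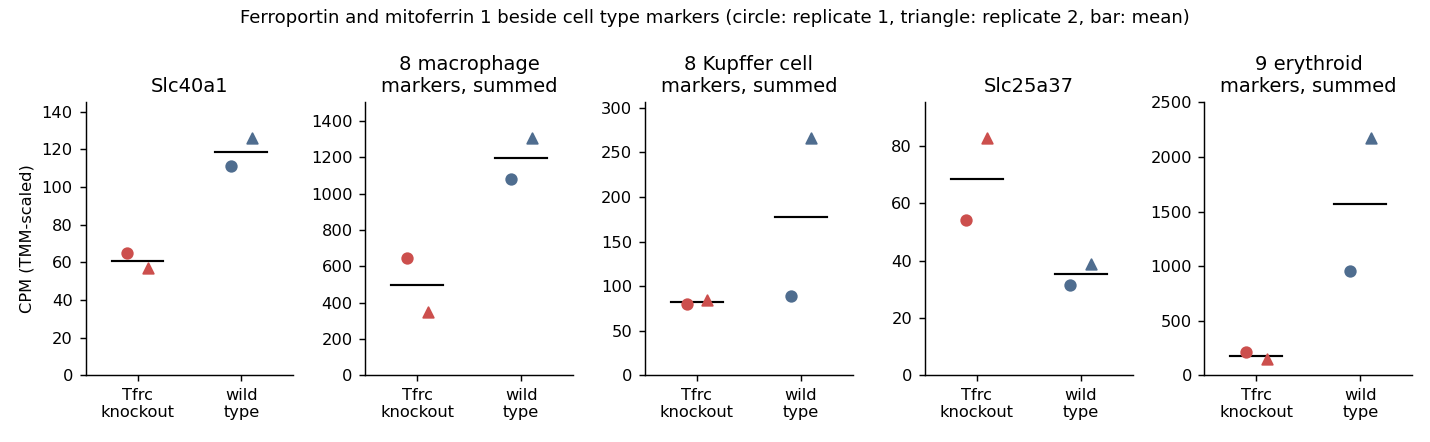
CPM (TMM-scaled, each axis from 0) of Slc40a1, the summed macrophage and Kupffer cell markers, Slc25a37 and the summed erythroid markers in the libraries labelled Tfrc knockout and wild type; circles are replicate 1, triangles replicate 2, bars the mean. Slc40a1, the macrophage sum and the erythroid sum are lower in both knockout libraries, and Slc25a37 is higher in both. Within wild type, the erythroid sum is higher in replicate 2. Slc25a37 is higher there with TMM scaling. Without TMM factors it had 5.88 and 5.81 counts per kilobase, relative to the library total, in wild type replicates 1 and 2.

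Among the 9 tested genes of the iron oxidases and the hepcidin system, which together govern export, 0 passed and 4 had a positive and 5 a negative value. Hamp, the gene of the hormone hepcidin that removes ferroportin from the membrane, had 23.5 and 520 CPM in knockout and 506 and 200 CPM in wild type, so the knockout animals spanned the wild type range. Tmprss6, a protease gene that restrains hepcidin, had 135 and 167 CPM in knockout and 189 and 317 CPM in wild type (log2 fold change -0.75, edgeR adjusted p = 0.633). Hfe, a partner of the transferrin receptor, had 34.5 and 14.7 CPM in knockout and 36.2 and 55.3 CPM in wild type. Relative to Fth1 within a library, which needs no scaling between libraries, Slc40a1 was at 0.0398 and 0.0395 per kilobase in knockout and at 0.0826 and 0.0447 in wild type. This ratio differed by -0.62 on the log2 scale (exact permutation p = 0.333, the smallest the design allows) and by -0.17 without wild type replicate 1.

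Neither iron regulatory protein gene passed the test, and that of IRP1 overlapped between groups. Aco1 (ENSMUSG00000028405, chromosome 4, 40143081 to 40198338) had 232 and 173 CPM in knockout and 217 and 246 CPM in wild type, and the groups overlapped. Aco1 was estimated at -0.19 on the log2 scale (SE 0.33, 95% interval -0.97 to 0.58, edgeR adjusted p = 0.88). Ireb2 (ENSMUSG00000032293, chromosome 9, 54863789 to 54912530) had 71.4 and 68.6 CPM in knockout and 63.3 and 34 CPM in wild type. The groups of Ireb2 did not overlap, yet wild type replicate 1 lay close to the knockout libraries and wild type replicate 2 alone was low. The estimate of 0.52 on the log2 scale (SE 0.37, 95% interval -0.34 to 1.39, edgeR adjusted p = 0.702) became 0.15 when wild type replicate 2 was left out, and 1 when replicate 1 of wild type was. Per kilobase, Aco1 had 6.86 and 5.31 times the level of Ireb2 in knockout, and 7.24 and 15.2 times in wild type. The log2 ratio differed by -0.8 (exact permutation p = 0.333, the smallest possible) and by -0.26 without wild type replicate 2.

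Fbxl5, the iron-sensing subunit of the ligase that degrades IRP2 (ENSMUSG00000039753, chromosome 5, 43744615 to 43821638), had 34.6 and 39.1 CPM in knockout and 44.1 and 40.2 CPM in wild type. The groups were apart by little, since knockout replicate 2 and wild type replicate 2 were nearly level. Fbxl5 was estimated at -0.19 on the log2 scale (SE 0.29, 95% interval -0.88 to 0.49, edgeR adjusted p = 0.867). Bst1 overlaps Fbxl5 on the opposite strand, with 37 and 22 counts in knockout and 61 and 34 in wild type, against 561 to 810 counts of Fbxl5 in the 4 libraries, and without a stated strand their reads cannot be told apart. Of 6 tested genes for ligase partners and cytosolic iron-sulfur assembly, 0 passed and 5 had a negative value, with a median of -0.22. Skp1a, the adaptor of the ligase, had 221 and 68.6 CPM in knockout and 195 and 283 CPM in wild type.

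The targets of the regulatory proteins were read as a list. Besides Fth1, Ftl1 and Slc40a1, mRNAs known for an element near the start include Alas2 (the erythroid heme synthesis enzyme) and Epas1 (HIF-2 alpha); Epas1 held no match to the pattern searched here. Neither passed, with a log2 fold change of -1.17 for Alas2 and -0.02 for Epas1. Alas2 had 18.9 and 21.2 CPM in knockout and 24.3 and 66 CPM in wild type. Its log2 fold change was -1.76 when replicate 2 was the only wild type library, and -0.28 when replicate 1 was. Alas2 is also one of the erythroid markers described with mitoferrin 1 below. Among 4 mRNAs listed for an element after the coding region, of which Tfrc alone held a match, 0 passed, 3 had a negative value and Cdc14a, a phosphatase gene, had 4.69 and 3.41 CPM in knockout and 2.29 and 0.715 CPM in wild type. Slc11a2, the endosomal iron transporter DMT1, had 100 and 73.5 CPM in knockout and 137 and 120 CPM in wild type. Tfrc and Slc11a2 thus both had negative values, of -0.37 and -0.56, and that of Tfrc was 0.16 without wild type replicate 1.

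Among all 13 listed uptake genes 0 passed, and 4 had a positive and 9 a negative value. Steap3, the endosomal reductase that readies iron for DMT1, had 30.8 and 36.6 CPM in knockout and 60.2 and 124 CPM in wild type (log2 fold change -1.45, SE 0.41, edgeR adjusted p = 0.545). With replicate 2 as the only wild type library its log2 fold change was -1.92, and with replicate 1 as the only one it was -0.84. Cybrd1, a surface ferrireductase gene, had only 6 and 3 counts in knockout and 24 and 25 in wild type.

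Pcbp1, the chaperone that delivers iron to ferritin (ENSMUSG00000051695, chromosome 6, 86524492 to 86526321), was steady and slightly higher in knockout. It had 494 and 511 CPM in knockout and 401 and 428 CPM in wild type, with no overlap between groups. Its estimate was 0.28 on the log2 scale (SE 0.34, 95% interval -0.53 to 1.09, edgeR adjusted p = 0.833), or 1.21-fold. The antisense gene 1600020E01Rik overlaps it with 164 and 257 counts in knockout and 218 and 151 in wild type, against 6581 to 8103 counts of Pcbp1. The related chaperone gene Pcbp2 had 150 and 129 CPM in knockout and 121 and 115 CPM in wild type, with a log2 fold change of 0.25. Glrx3, which carries iron-sulfur clusters in the cytosol, had 72.9 and 59.2 CPM in knockout and 78.3 and 119 CPM in wild type. Of 6 tested chaperone and lysosomal release genes 0 passed, with 3 positive and 3 negative values.

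Both mitoferrin genes lay higher in the knockout libraries. Slc25a37, mitoferrin 1 (ENSMUSG00000034248, chromosome 14, 69241848 to 69285112), had 54.3 and 82.7 CPM in knockout and 31.6 and 38.8 CPM in wild type. Both knockout libraries were above both wild type libraries, and knockout replicate 2 was the highest. The means were 68.5 ± 20 CPM in knockout and 35.2 ± 5.05 CPM in wild type (SD, n = 2 each), a 1.95-fold higher level. On the log2 scale this was 0.96 (SE 0.33, 95% interval 0.17 to 1.75), with an unadjusted p of 0.0244 and an edgeR adjusted p of 0.562, and it was 0.63 without knockout replicate 2. Slc25a28, mitoferrin 2 (ENSMUSG00000040414, chromosome 19, 43663801 to 43674881), had 50.3 and 55.1 CPM in knockout and 41.2 and 37.5 CPM in wild type. Its groups did not overlap either, with a log2 fold change of 0.42 (SE 0.29, 95% interval -0.25 to 1.1, edgeR adjusted p = 0.692).

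Mitoferrin 1 is best known from developing red blood cells, and mitoferrin 2 from most other tissues. The 9 erythroid markers in the table summed to 213 and 151 CPM in knockout and 957 and 2174 CPM in wild type, opposite in direction to Slc25a37. Most of that sum came from the 4 globin genes, whose edgeR adjusted p-values were 0.374 to 0.385, and the membrane genes Slc4a1 and Epb42 had at most 8 counts in any library. Of the 6 tested markers, 5 had a negative log2 fold change and 1, Klf1, a positive one of 0.41. Klf1 had 1.36 and 1.07 CPM in knockout and 0.599 and 1.23 CPM in wild type, and its groups overlapped. Per kilobase, Slc25a37 had 0.672 and 0.934 times the level of Slc25a28 in knockout, and 0.478 and 0.644 times in wild type. The log2 ratio was 0.51 higher in knockout (exact permutation p = 0.333, the smallest possible), and 0.28 without knockout replicate 2. The share of counts from mitochondrially encoded genes was 9.8% and 16.63% in knockout and 8.69% and 4.13% in wild type, and its part in these values was not tested. With those genes left out of the counts, Slc25a37 had a log2 fold change of 0.94 and Slc25a28 one of 0.4. Of 5 tested genes for mitochondrial iron use 0 passed, and 4 had a negative value. Nfs1, the cysteine desulfurase of iron-sulfur cluster assembly, had 80.4 and 69.5 CPM in knockout and 84.3 and 82.3 CPM in wild type.

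**Figure D4:**
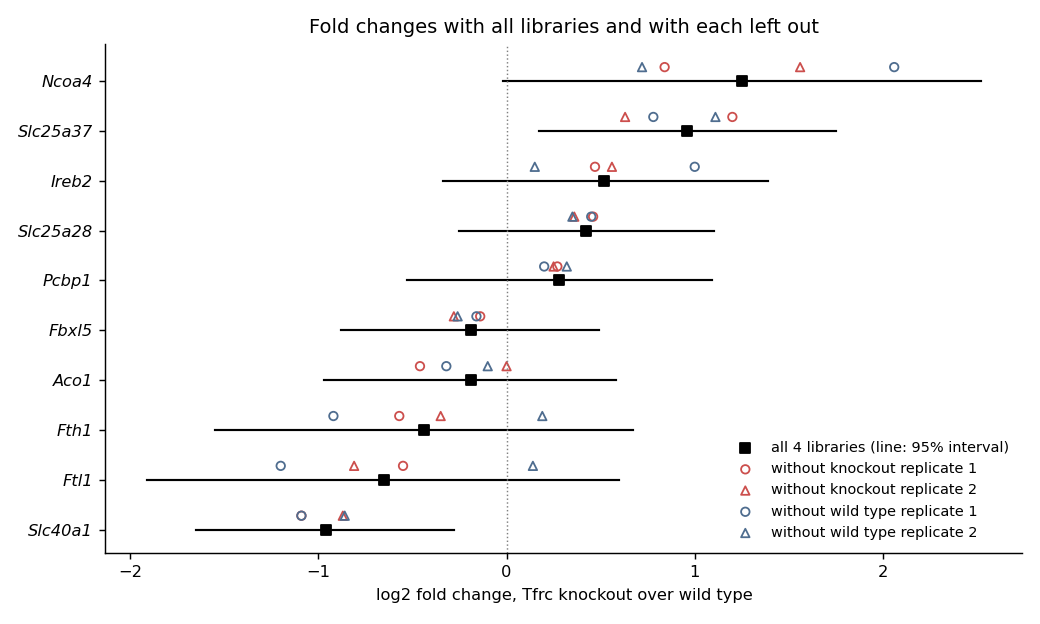
Log2 fold change of each of the 10 genes, libraries labelled Tfrc knockout over wild type; squares and lines are the edgeR estimate and its 95% interval with all 4 libraries, open symbols the estimate with 1 library left out. The intervals of Slc40a1 and Slc25a37 do not reach 0, and Fth1 and Ftl1 change sign without wild type replicate 2.

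**Figure D5:**
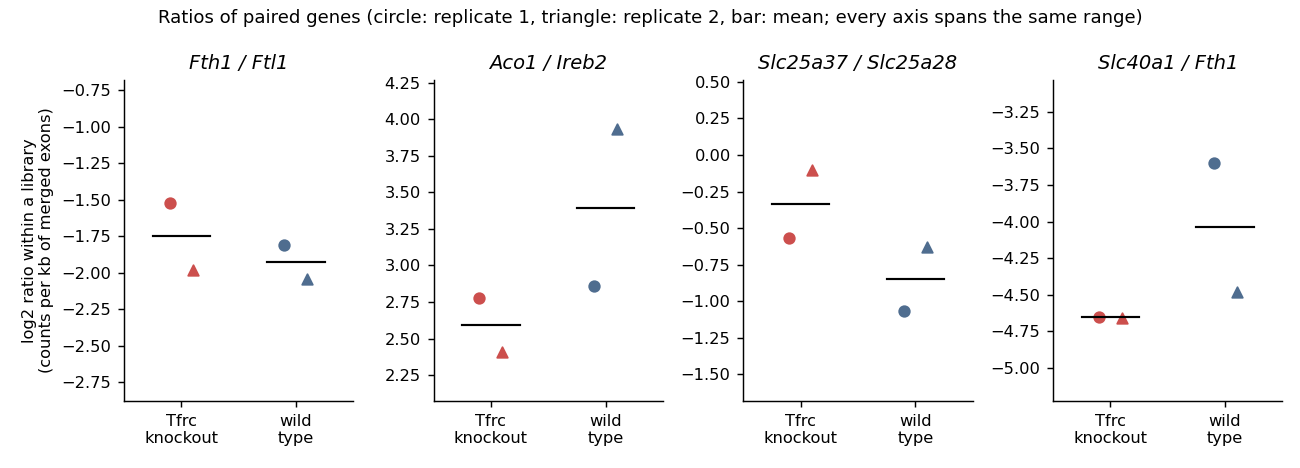
Log2 ratio of paired genes within each library, from counts per kilobase of merged exons, in the libraries labelled Tfrc knockout and wild type; circles are replicate 1, triangles replicate 2, bars the mean, and each axis spans the same range. The groups overlap for Fth1 to Ftl1 and are apart for Aco1 to Ireb2, Slc25a37 to Slc25a28 and Slc40a1 to Fth1, with wild type replicate 2 far from the rest for Aco1 to Ireb2, and wild type replicate 1 for Slc40a1 to Fth1.

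The genes ranged widely in level. In counts per kilobase of merged exons, relative to the library total in CPM units without TMM factors, the group means were 568 in knockout and 872 in wild type for Ftl1, 272 and 228 for Pcbp1, 169 and 224 for Fth1, and 44.9 and 51.7 for Aco1. Pcbp1 and Fth1 in wild type did not differ beyond their spread, since Pcbp1 had 245 and 211 and Fth1 166 and 283 in wild type replicates 1 and 2. Slc25a28 followed with 13.9 in knockout and 10.7 in wild type, Slc25a37 with 11.2 and 5.85, Ireb2 with 7.33 and 5.35, and Slc40a1 with 6.71 and 13.2. Slc40a1 was thus the 8th of the 10 genes in knockout and the 5th in wild type. Fbxl5, at 3.75 in knockout and 4.39 in wild type, and Ncoa4, at 2.2 and 0.98, were the lowest. The levels of Ncoa4 and Ftl1 here leave out counts assigned to their copies, and depend on how reads were split. The deposited FPKM gave another order in knockout, with Pcbp1 at a mean of 272 FPKM above Ftl1 at 238. For 97.8% of 17651 genes, within 1%, the length behind the deposited FPKM was the sum of all distinct annotated exons, with overlapping exons counted repeatedly. That length was 2.39 times the merged exon length for Ftl1, 2.03 times for Slc25a37, 1.98 times for Fth1 and 1 for Pcbp1.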

How the data were processed

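Bulk tumour RNA of 4 mice was made into mRNA-seq libraries, per the labels' protocols. The authors deposited 1 table with whole-number counts and FPKM per gene and library. Per the submitters' processing notes, the build was mm10 and the tools included StringTie, HISAT2, edgeR and SAMtools 1.3.1, with no roles. Strandedness and the handling of multiply mapped reads: not given in the sources used here. GENCODE M21 gave symbols for 55141 identifiers, and 99.35% of their deposited spans equalled its own.

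Counts were filtered with filterByExpr, scaled by TMM and tested with edgeR 4.0.16 (R 4.3.3). CPM, means and SDs are TMM-scaled. Alternatives were DESeq2 1.42.0 or limma-voom (limma 3.58.1), other scalings and filters, a replicate block, mitochondrial genes left out, and each library left out, where a lone library is taken to vary as the remaining pair does. The fit was tested on simulated data. Ratios used an exact two-sided permutation test. Replicates are separate samples of a group, and p-values set the difference between groups against the spread between replicates. In edgeR the spread of a gene is estimated partly from the other tested genes. A floor of 3 counts is 0.176 to 0.188 CPM.

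Near-identical genes were found with blastn 2.17.0 on coding sequences. The genes and lists were chosen with earlier results of these data known. Named besides the 10 genes were Tfrc, from each iron list the 2 tested members with the smallest p, the ferritin-named genes, and the genes nearest in pattern to Fth1, Slc40a1 and Slc25a37 by distance over centred log2 CPM. Some genes that this rule names are not reported here. Hamp, Epas1, Nr1h3, Nqo1, Bach1, Gm15590, Gm6768, Bst1 and 1600020E01Rik were chosen after their values were seen. So were the other cell type markers named singly, including those with counts at or near 0.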

Additional observations from a re-analysis of the deposited data

How the results depend on the processing

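Under every alternative run, 0 of the 10 genes passed the threshold. Their direction was kept in 119 of 122 values under alternatives. The exceptions were Fth1 (range -0.92 to 0.19 over the libraries left out) and Ftl1 (-1.2 to 0.14), both turned without wild type replicate 2, and Aco1 (-0.46 to 0), turned without knockout replicate 2. Tfrc (-0.79 to 0.16) turned without wild type replicate 1. The count over all genes was 0 with edgeR (1354 at an unadjusted p under 0.05), 148 with DESeq2, 1 with limma-voom, 1 with library totals and 4 with the replicate block, and 0 to 409 when 1 library was left out (409 without wild type replicate 1, 3 without knockout replicate 2 and 68 without wild type replicate 2). For other iron genes it was 0, and 0 to 2 when 1 library was left out, the 2 being Steap3 and Alas2 without wild type replicate 1. A fit with 1 library left out has a lone library in its group, so its count rests on the spread of the other group. The cause of the differences in count was not tested. The ratio of Fth1 to Ftl1 had a range of -0.06 to 0.41 over the libraries left out, and was -0.06 without knockout replicate 1.

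The shared replicate numbers are no stated pairing. Across tested genes, deviations from the group mean correlated at 0.121 between knockout replicate 1 and wild type replicate 1. With 2 libraries per group, the replicate 2 libraries give the same value. The replicate block changed no call among the 10 genes. For Ncoa4, wild type replicate 2 held 74 counts, which limits its precision.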

Other observations

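The list for the NRF2 and BACH1 pathway, which also acts on the ferritin genes, holds the regulator genes Nfe2l2, Keap1 and Bach1 and 7 of their target genes. Of these 10, 0 passed, and 5 log2 fold changes were above 0 and 5 below it, with a median of 0.08. Hmox1, the heme-degrading enzyme that frees iron, had 51.5 and 32.1 CPM in knockout and 81.7 and 95.1 CPM in wild type (log2 fold change -1.08, SE 0.34, edgeR adjusted p = 0.547). Gclc, the limiting enzyme of glutathione synthesis, had 299 and 331 CPM in knockout and 203 and 204 CPM in wild type (log2 fold change 0.63, edgeR adjusted p = 0.633). Bach1 had 23 and 31.7 CPM in knockout and 20.3 and 11.5 CPM in wild type, and the quinone reductase gene Nqo1 had 0.0617 CPM (1 count) and 2.59 CPM in knockout and 7.46 and 4.09 CPM in wild type.

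The genes nearest in pattern were found among 10772 genes by the Euclidean distance between centred log2 CPM over the 4 libraries. For Fth1 they were Fau, a ribosomal fusion protein gene, at 0.0669, Fam110a at 0.0813 and the kinase gene Nme2 at 0.086. For Slc40a1 they were Tgfb1, a growth factor gene, at 0.0637, the tubulin gene Tubb6 at 0.0671 and Cops8 at 0.082. For Slc25a37 they were Plekha7 at 0.132, Cables2 at 0.148 and the poly(A)-binding protein gene Pabpn1 at 0.15. Tgfb1 had 20 and 18.1 CPM in knockout and 33.8 and 37.9 CPM in wild type. With 4 libraries, such likeness describes these samples only.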
